A study of Mus musculus with 12 samples.

Results

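Kinesins are motor proteins that use ATP to move along microtubules or to shorten them at their ends. Members that act in cell division build the bipolar spindle, align and separate the chromosomes, and organise the midzone at which the daughter cells part, and their transcripts are made mostly in cells that are cycling. Other members carry vesicles, mitochondria, lysosomes and protein complexes outward along microtubules and are used by cells whether or not they divide.

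The kinesin genes were taken as all gene symbols made of Kif, a number and at most 1 letter, which selected 39 of the 35303 symbols in the count table. Of these, 12 were assigned to a mitotic class, 13 to a transport class and 6 to a ciliary or centriolar class, and 8 were kept apart as others. A gene was tested when it had at least 2 counts over all libraries, which left 34 kinesins, and 25 of these had a mean normalized count above 50. Kif2b, Kif12, Kif26a, Kif27 and Kif28 had 0 counts in every library, where the upper limit that a count of 0 allows is 3 counts, or 7.92e-06% to 1.46e-05% of a library.

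The 12 libraries were bulk RNA-seq of mouse myeloid-derived suppressor cells (MDSCs), with 4 libraries for each of 3 groups. The cells were wild type (WT) and were grown from the bone marrow of young adult female C57BL/6 mice with IL-6 and GM-CSF, purified as CD11b+Gr1+ cells, and kept for a further day in medium with IL-6 before RNA extraction. The MDSC group carried no particles, the MDSC-NP-Blk group carried blank poly(lactide-co-glycolide) nanoparticles, and the CITED group carried the same kind of nanoparticle loaded with rapamycin, an inhibitor of the growth-controlling kinase mTOR. Particles were attached by click chemistry between azido groups on the cells and dibenzocyclooctyne on the particles, so MDSC-NP-Blk and CITED shared the azido sugar, the coupling and the particle, and the effect of these on the difference from MDSC cannot be told apart. The cultures hold a mixture of polymorphonuclear and monocytic MDSCs, and in such bulk samples fewer cycling cells and less kinesin RNA per cell cannot be told apart. The titles number the libraries of a group as biological replicates, and nothing in the sources used here ties a number to an animal or a preparation, so p-values measure the spread between these libraries.

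Depth ranged from 20604809 to 37855478 counts per library. Of 12 MDSC marker genes, all but Ly6c1 had a mean normalized count above 50, led by S100a9 with 316834. Although the labels give the tissue as CNS, the 5 neuronal markers had 0 counts in every library. So did the astrocyte markers Gfap and Aqp4 among 5 glial markers, whose sum came mostly from Mbp with a mean of 1990. The granulocyte precursor genes Elane and Mpo had lower means along the order MDSC, MDSC-NP-Blk and CITED, from mean normalized counts of 15040 through 10874 to 1557 and from 27104 through 8699 to 1275. Ccr2 also had lower means along this order (3574, 2243 and 1578). Itgam (51829, 61243 and 69848), Csf3r (4329, 10976 and 12598) and Csf1r (11287, 21112 and 22511) had higher means along it. The other MDSC markers, Ly6g, Ly6c1, Ly6c2, S100a8, S100a9 and Cebpe, had their highest mean in MDSC-NP-Blk. The summed level of 5 B-cell markers, all detected, was 270 to 368, 175 to 251 and 71.3 to 100 in these groups, that of 4 mast cell and basophil markers 3813 to 4161, 4093 to 4753 and 2519 to 2695, that of 4 megakaryocyte markers 3630 to 4209, 5738 to 5984 and 5364 to 5886, and that of 4 dendritic cell markers 79.9 to 114, 83.2 to 114 and 125 to 201. The part of these shifts in the kinesin results was not tested. T-cell, NK-cell, erythroid and stromal markers stayed under a mean of 50 each.

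The mitotic kinesins fell together in CITED. All 11 tested members were called lower in CITED than in MDSC, where a gene is called when its adjusted p is below 0.05 and its log2 fold change is 1 or more in size, against 6.70% of all genes tested (edgeR's quasi-likelihood test). Their median log2 fold change was -2.06, with a range from -2.35 for Kif18a to -1.08 for Kif23, against a median of -0.05 over all 17676 genes. Of the 13 transport kinesins, 3 were called lower and 0 higher, where 3.28% of all genes were called higher, and their median was -0.31. At an adjusted p below 0.05 alone, 7 transport kinesins were lower and 2 were higher, where 22.2% of all genes were lower and 22.2% higher. No kinesin of any class was called higher in CITED than in MDSC by edgeR, and at an unadjusted p below 0.05 the higher ones were the transport members Kif1c and Kif3a, as with DESeq2.

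**Figure D1:**
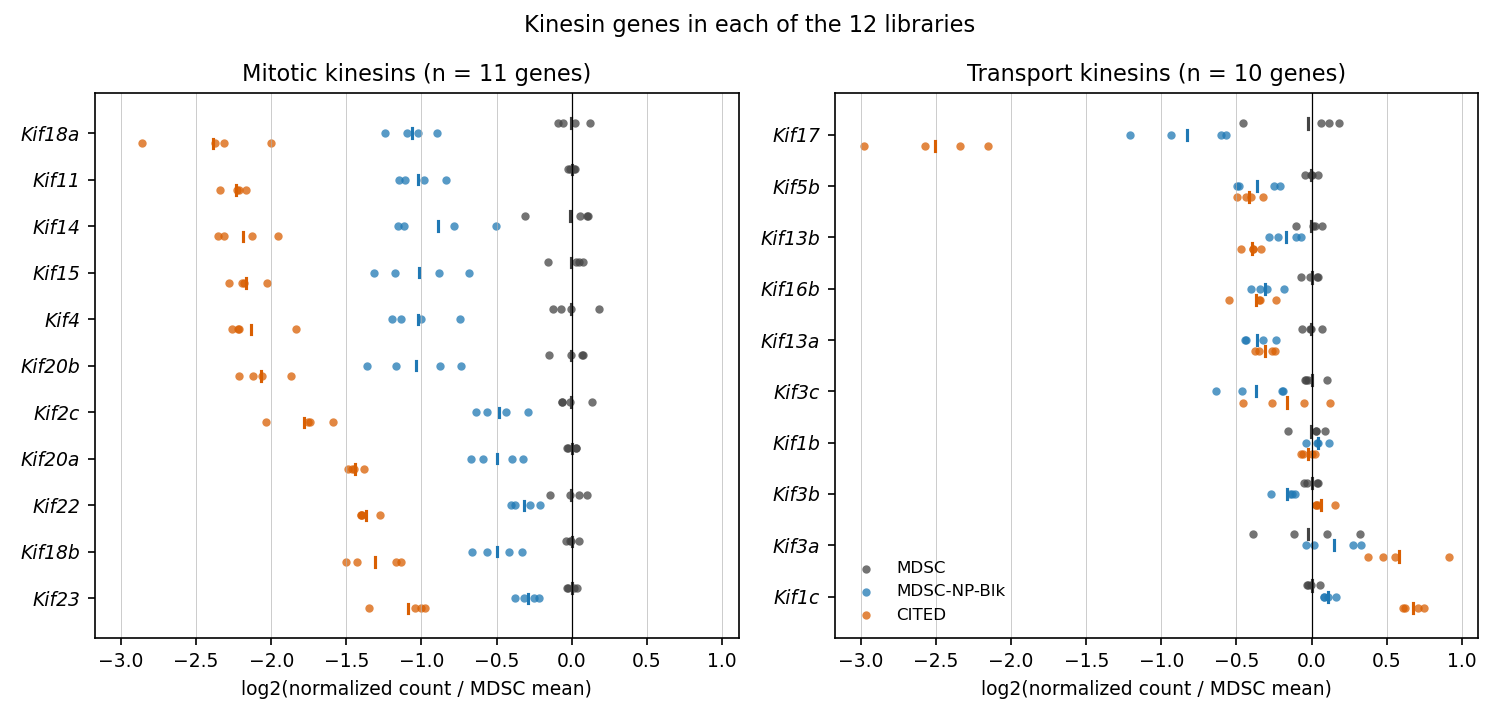
Normalized counts of the 11 mitotic and the 10 transport kinesins with a mean above 50, as log2 of the value in each library over the MDSC mean of the gene. Points are single libraries, bars are group means of the plotted values, and genes are ordered by the fold change of CITED against MDSC. The mitotic genes step down from MDSC to MDSC-NP-Blk and again to CITED, while transport genes other than Kif17 stay within about a log2 unit of 0.

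Both the blank particle and its rapamycin load went with lower mitotic kinesins. In MDSC-NP-Blk against MDSC, all 11 were lower at an adjusted p below 0.05 by edgeR, where 18.6% of all genes were lower and 19.9% higher, with a median log2 fold change of -0.86. Only 4 of them reached a log2 fold change of -1, namely Kif18a, Kif11, Kif20b and Kif4, where 2.86% of all genes were called lower and 1.88% higher. These 4 lay between -1.06 and -1.01, and 0 of them remained called when a trend with transcript length was removed from each library, although all 11 still passed at an adjusted p below 0.05. In CITED against MDSC-NP-Blk, all 11 were lower at an adjusted p below 0.05, where 11.4% of all genes were lower and 10.5% higher, and 8 were called lower, where 2.00% of all genes were called lower and 0.651% higher. The median of that comparison was -1.11, from -1.32 for Kif14 to -0.79 for Kif23. For each of the 11 genes the libraries of the 3 groups did not overlap, with MDSC highest and CITED lowest. How many of all genes were separated in this way was not counted, so the separation is not shown to be particular to these genes.

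The promoters of the mitotic members were examined because these genes moved together and because cell cycle genes of late G2 and mitosis are known to carry the cell cycle genes homology region, a short element bound by the DREAM and MuvB complexes, often next to CCAAT boxes. RefSeq promoters (assembly GRCm38.p6, 250 bases before to 50 bases after the start) were found for 31 of the 39 kinesins, with no entry for Kif5a, Kif5b, Kif13b, Kif19a, Kif19b, Kif20a, Kif21b and Kif28. The core TTTGAA or TTTAAA, on either strand, was in the promoters of 9 of 11 mitotic genes, in 1 of 10 transport genes (Kif1a), and in 27.6% of all 32851 promoters. CCAAT, on either strand, was in 7 of 11 mitotic genes, in 3 of 10 transport genes and in 37.4% of all promoters. The E2F site GGCGGGAA was in 0 of 11 and 0 of 10, and in 2.19% of all promoters. These matches are descriptions of letters and not of bound sites. Windows from 100 bases before the start to 50 bases after it are given here for 6 mitotic genes that hold the core within this window and for 2 transport genes that do not, each 5′ to 3′ on the strand of the gene, with matches to the core and to CCAAT in capitals (TTCAAA and ATTGG are the same motifs on the other strand):
Kif11, chr19:37376282-37376431, plus strand: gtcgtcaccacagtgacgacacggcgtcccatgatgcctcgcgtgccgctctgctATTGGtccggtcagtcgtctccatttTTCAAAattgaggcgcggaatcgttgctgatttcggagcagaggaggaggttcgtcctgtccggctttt
Kif15, chr9:122950981-122951130, plus strand: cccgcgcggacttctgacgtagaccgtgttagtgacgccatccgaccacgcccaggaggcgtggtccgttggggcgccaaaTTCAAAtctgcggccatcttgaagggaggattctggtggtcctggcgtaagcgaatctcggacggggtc
Kif22, chr7:127042371-127042520, minus strand: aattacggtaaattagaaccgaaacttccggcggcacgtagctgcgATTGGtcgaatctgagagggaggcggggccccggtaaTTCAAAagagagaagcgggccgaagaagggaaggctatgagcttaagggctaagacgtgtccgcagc
Kif4, chrX:100625965-100626114, plus strand: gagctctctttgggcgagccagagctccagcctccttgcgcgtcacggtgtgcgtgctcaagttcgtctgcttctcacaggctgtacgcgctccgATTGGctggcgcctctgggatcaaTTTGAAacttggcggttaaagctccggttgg
Kif18b, chr11:102925075-102925224, minus strand: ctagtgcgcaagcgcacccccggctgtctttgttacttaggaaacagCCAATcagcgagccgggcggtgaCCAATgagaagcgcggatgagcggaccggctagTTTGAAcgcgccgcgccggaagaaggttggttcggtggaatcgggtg
Kif23, chr9:61946750-61946899, minus strand: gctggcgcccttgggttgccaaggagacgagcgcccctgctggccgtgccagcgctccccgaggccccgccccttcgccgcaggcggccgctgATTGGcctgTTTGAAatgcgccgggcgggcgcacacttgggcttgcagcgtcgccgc
Kif1c, chr11:70700448-70700597, plus strand: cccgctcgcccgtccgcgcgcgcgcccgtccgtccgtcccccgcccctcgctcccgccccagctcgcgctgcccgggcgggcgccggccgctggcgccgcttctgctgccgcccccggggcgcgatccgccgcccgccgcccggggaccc
Kif3b, chr2:153291316-153291465, plus strand: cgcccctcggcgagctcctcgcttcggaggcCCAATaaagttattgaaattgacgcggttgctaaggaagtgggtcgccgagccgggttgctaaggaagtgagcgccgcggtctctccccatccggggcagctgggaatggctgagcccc

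In these windows the core began 19 bases before the start in Kif11 and Kif15, 17 bases before it in Kif22, and 3, 2 and 19 bases after it in Kif18b, Kif23 and Kif4. A CCAAT box lay before the core in Kif11, Kif22, Kif4, Kif18b and Kif23 and was not in the Kif15 window. Kif14, with the core 42 bases before its start, and Kif20b, with it 7 and 13 bases after, also held it within this stretch. Kif2c had its 2 matches farther out, 234 and 103 bases before its start. Kif14, Kif15 and Kif22 had a further match 228, 234 and 215 bases before the start. The promoters of Kif18a and Kif2b held no match to the core.

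Kif11 and Kif15 are the motors that push the spindle poles apart. Kif11 (GRCm39 chr19:37364799-37410307) had normalized counts of 3254, 3318, 3231 and 3335 in the 4 MDSC libraries, 1481, 1660, 1841 and 1519 in MDSC-NP-Blk, and 647, 731, 702 and 708 in CITED. Normalized counts are counts divided by library size and scaling factor and brought to the mean library size. Kif11 was the highest mitotic kinesin per kilobase in MDSC, and its level in CITED was 21.2% of that in MDSC, a log2 fold change of -2.24 ± 0.067 (SE, adjusted p = 5.9e-24 by edgeR). The blank step (MDSC-NP-Blk against MDSC) was -1.01 ± 0.0628 and the rapamycin step (CITED against MDSC-NP-Blk) was -1.22 ± 0.0668. Kif15 (chr9:122780111-122847806) had 1410, 1222, 1436 and 1390 in MDSC, 547, 739, 849 and 605 with blank particles and 281, 301, 298 and 335 in CITED. It fell by 2.16 on the log2 scale in CITED against MDSC (SE 0.102, adjusted p = 8.5e-19, edgeR), with steps of -0.99 and -1.18. The MDSC-NP-Blk libraries of Kif15 spread more widely than those of the other groups (SD 136 against 96.7 and 22.4), and replicates 2 and 3 were the upper ones, as for Kif11.

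Kif4 and Kif22 are chromokinesins, which bind chromosome arms, and Kif4 also acts at the spindle midzone. Kif4 (chrX:99669343-99770946) had 1080, 873, 906 and 952 in MDSC, 415, 475, 568 and 434 with blank particles and 204, 199, 267 and 205 in CITED. Its log2 fold change in CITED against MDSC was -2.12 ± 0.106 (adjusted p = 3.7e-18, edgeR), split into -1.01 and -1.11. Kif22 (chr7:126626898-126641643) had 1388, 1168, 1335 and 1282 in MDSC, 995, 1065, 1117 and 976 with blank particles and 488, 490, 492 and 535 in CITED. The 2 chromokinesins differed in where they fell. Kif22 kept 80.3% of its MDSC level with blank particles and 38.8% in CITED, with log2 steps of -0.32 ± 0.0719 and -1.05 ± 0.0761, whereas Kif4 kept 49.6% with blank particles.

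Kif18a, Kif18b and Kif2c act on microtubule ends, where Kif18a dampens chromosome oscillation, Kif18b shortens astral microtubules and Kif2c (MCAK) depolymerises microtubules to correct faulty attachments. Kif18a (chr2:109111083-109173023), the least abundant of the 11 tested mitotic members, had 332, 314, 307 and 356 in MDSC, 153, 161, 176 and 138 with blank particles and 45, 81.7, 63.1 and 65.6 in CITED. It had the lowest log2 fold change of the class, -2.35 ± 0.148 (adjusted p = 1.9e-15, edgeR). Kif18b (chr11:102796348-102815956) had 668, 653, 692 and 665 in MDSC, 453, 501, 531 and 422 with blank particles and 236, 248, 297 and 304 in CITED, a log2 fold change of -1.30 ± 0.0956 in CITED against MDSC. Kif2c (chr4:117016830-117039836) had 1253, 1094, 1133 and 1092 in MDSC, 775, 844, 934 and 736 with blank particles and 380, 279, 342 and 338 in CITED. Kif2c fell by 0.47 with blank particles and by a further 1.30 with rapamycin on the log2 scale, and in CITED it kept 29.3% of its MDSC level.

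Kif23, Kif20a, Kif20b and Kif14 work at the central spindle and in cytokinesis. Kif23 (MKLP1, chr9:61823187-61854074), the motor of centralspindlin, had 1388, 1350, 1339 and 1408 in MDSC, 1056, 1099, 1177 and 1154 with blank particles and 537, 685, 698 and 665 in CITED. Kif20a (MKLP2), which carries the chromosomal passenger complex to the midzone, had 1570, 1563, 1630 and 1630 in MDSC, 1062, 1274, 1214 and 1003 with blank particles and 612, 581, 570 and 586 in CITED. The smallest fall of the class was that of Kif23, with a log2 fold change of -1.08 ± 0.0756 (adjusted p = 2.7e-14, edgeR), and Kif20a followed Kif18b and Kif22 with -1.45 ± 0.0744. Kif20b (chr19:34899752-34953149), which acts late in cytokinesis, had 994, 900, 1052 and 1048 in MDSC, 388, 543, 600 and 443 with blank particles and 239, 215, 273 and 229 in CITED. Kif14 (chr1:136394081-136459249), which localises citron kinase to the midbody, had 933, 697, 898 and 928 in MDSC, 398, 503, 609 and 388 with blank particles and 174, 198, 223 and 169 in CITED. Both fell about as far as Kif11, with log2 fold changes of -2.06 and -2.18, and MDSC replicate 2 was the low library of its group for Kif14.

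The sizes of both steps were compared gene by gene with the contrast of the rapamycin step minus the blank step, where 13.6% of all genes were lower and 9.22% higher at an adjusted p below 0.05 by edgeR. A larger fall in the rapamycin step was found for 4 of the 11 mitotic members, namely Kif2c (-0.82 ± 0.149, adjusted p = 6.0e-05), Kif22 (-0.73 ± 0.126, adjusted p = 2.8e-05), Kif23 (-0.50 ± 0.128, adjusted p = 0.0031) and Kif20a (-0.47 ± 0.125, adjusted p = 0.00445). With scaling by library size alone Kif23 (-0.25) and Kif20a (-0.22) did not pass, nor did Kif20a without MDSC-NP-Blk replicate 2 (-0.35). In these 4 the blank step held 23.1% to 33.6% of the whole log2 fall. For the other 7 the contrast did not pass, and their blank step held 37.4% (Kif18b) to 48.9% (Kif20b) of the fall. Kif14 did pass with the replicate block (-0.45), with the length trend removed (-0.61), and without MDSC-NP-Blk replicate 1 (-0.61) or 4 (-0.63). With the length and GC trends removed, Kif14 (-0.62) and Kif11 (-0.26) passed. So 5 of the 11 passed with the length trend removed, and 6 with the length and GC trends removed. A missed threshold does not show equal steps, and the 95% intervals of the contrast reached from -0.43 to 0.02 for Kif11, from -0.41 to 0.32 for Kif20b and from -0.88 to -0.05 for Kif14. The contrast uses MDSC-NP-Blk in both steps, so it leans on the spread of those 4 libraries, and without MDSC-NP-Blk replicates 1 and 4, a choice made after seeing the data, 8 of the 11 passed.

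**Figure D2:**
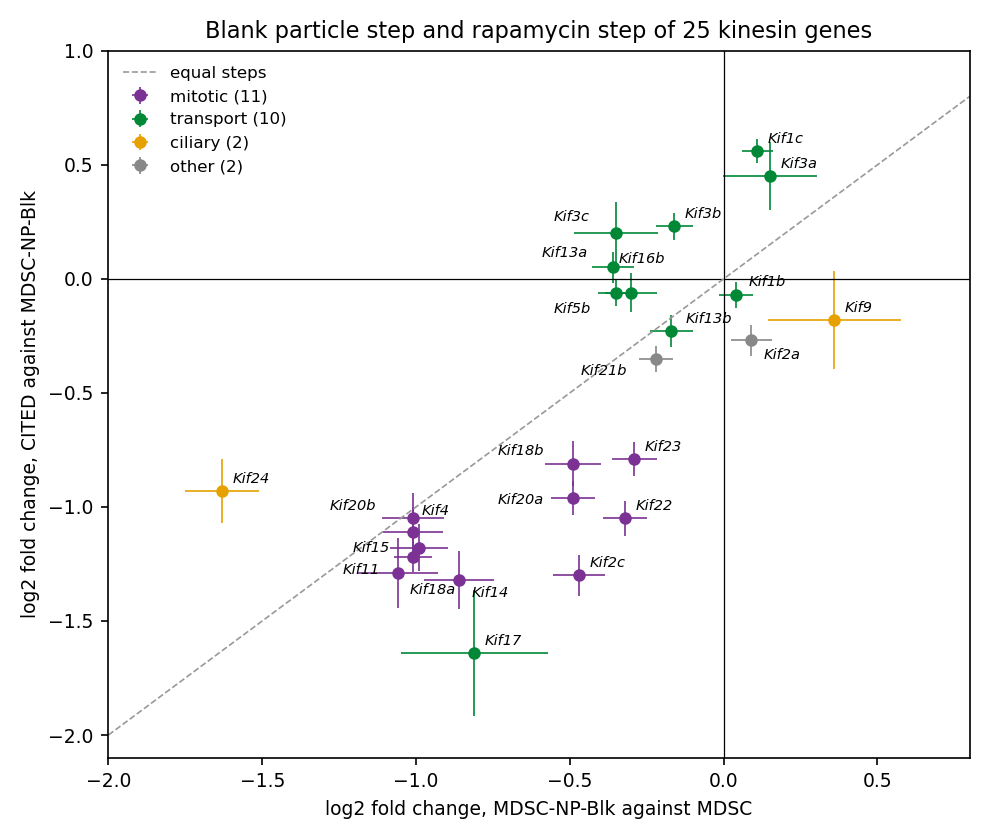
Log2 fold change of MDSC-NP-Blk against MDSC (horizontal) and of CITED against MDSC-NP-Blk (vertical) for the 25 kinesins with a mean above 50, with bars for the SE of each. The 11 mitotic members lie below 0 on both axes, Kif2c, Kif22, Kif23 and Kif20a are the mitotic members whose distance below the dashed line of equal steps passed the test, as did Kif2a among the others, and most transport members lie near 0 on both axes. The axes share the MDSC-NP-Blk libraries.

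Within MDSC-NP-Blk the mitotic kinesins moved together from library to library. Their median deviation from the group mean was -0.09, 0.04, 0.19 and -0.15 on the log2 scale in replicates 1 to 4, and 0, 10, 11 and 1 of the 11 genes lay above their group mean. Spearman's rho between transcript length and the deviation of a gene from its mean over all libraries, across 10542 genes that are not independent, was -0.42, -0.05, 0.09 and -0.24 in the same libraries, against 0.22 to 0.35 in MDSC and -0.34 to -0.19 in CITED. With the length trend removed, the mitotic deviations were -0.10, 0.06, 0.16 and -0.14, so replicates 1 and 4 remained below replicates 2 and 3. The same split was seen over the 10555 genes with a mean above 50, so it was not particular to kinesins. There the mean chi-square per gene against counting noise was 6.01 between replicates 1 and 4 and 6.14 between replicates 2 and 3. It was 17.6 to 24.2 for the other pairs of MDSC-NP-Blk libraries. The median log2 fold change of the class in MDSC-NP-Blk against MDSC was -0.61 with the length trend removed, and -0.64 without replicates 1 and 4.

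Kinesin-1, built on the Kif5 heavy chains, hauls mitochondria, lysosomes and other cargo. Kif5b, its ubiquitous heavy chain, had the highest level per kilobase of all kinesins in MDSC, with normalized counts of 4273, 4141, 4390 and 4254 in MDSC, 3018, 3579, 3679 and 3050 with blank particles and 3223, 3404, 3028 and 3149 in CITED. It was lower in both particle groups, by -0.35 ± 0.0586 with blank particles (adjusted p = 6.0e-06) and by -0.41 ± 0.0588 in CITED (adjusted p = 2.9e-07, edgeR), and CITED and MDSC-NP-Blk overlapped. In CITED against MDSC it was at -0.20 with the length trend removed, and at -0.06 (adjusted p = 0.296) with the length and GC trends removed. Kif5c, a neuronal heavy chain, was called lower in CITED (-2.16 ± 0.705, adjusted p = 0.0115) and with blank particles (-2.41 ± 0.712, adjusted p = 0.00632) at a level of 13.8 to 28.1 normalized counts in MDSC and 0 to 7.28 in the other libraries. The neuronal Kif5a, with 0 to 9.19, did not pass in any comparison.

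Kinesin-2 works as a heterotrimer of Kif3a with Kif3b or Kif3c, or as the homodimer Kif17, and serves cilia as well as vesicle traffic. Kif3a (chr11:53458168-53495071) had 139, 189, 115 and 162 in MDSC, 190, 153, 147 and 183 with blank particles and 210, 222, 196 and 285 in CITED. It was 1.52-fold higher in CITED than in MDSC (log2 0.60 ± 0.15, adjusted p = 0.00104, edgeR), with no overlap, and scaling by library size alone gave 0.33 (adjusted p = 0.0689). Its partner Kif3b (chr2:153133325-153175310) had 1642, 1738, 1745 and 1664 in MDSC, 1410, 1552, 1569 and 1534 with blank particles and 1736, 1890, 1730 and 1752 in CITED. Kif3b was lower with blank particles (-0.16 ± 0.0591, adjusted p = 0.0282) and higher in CITED than in MDSC-NP-Blk (0.23 ± 0.0594, adjusted p = 0.00406), while its value in CITED against MDSC was 0.07 ± 0.059 (adjusted p = 0.386) and turned to -0.21 with scaling by library size alone. With the length trend removed, Kif3b was instead higher in CITED against MDSC (0.25, adjusted p = 1.5e-04) and did not pass with blank particles (-0.04, adjusted p = 0.638). Kif3c (chr12:3400262-3456494) had 230, 211, 208 and 209 in MDSC, 155, 188, 187 and 138 with blank particles and 233, 156, 207 and 178 in CITED, and was lower with blank particles (-0.35 ± 0.135, adjusted p = 0.0363), which no longer passed with the length trend removed (-0.18, adjusted p = 0.311).

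Kif17 fell further in CITED than the other transport members with a mean above 50. Kif17 (chr4:137977746-138031605) had 112, 107, 71.7 and 103 in MDSC, 64.9, 51.6, 42.6 and 66.5 with blank particles and 12.5, 19.5, 16.6 and 22.2 in CITED. The groups did not overlap, and its log2 fold change was -2.46 ± 0.271 in CITED against MDSC (adjusted p = 1.6e-09, edgeR), beyond the range of the mitotic members. Its rapamycin step was -1.64 ± 0.278 (adjusted p = 2.2e-05), and it was the transport member called lower there. With the length trend removed it was -2.41 in CITED against MDSC. Its level was low, and other genes hold 5.19% of its 31-base words.

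Kinesin-3 motors carry vesicles, endosomes and lysosomes, and among these Kif1c rose. Kif1c (chr11:70591046-70622790), which moves integrin-bearing and dense-core vesicles, had 2387, 2515, 2366 and 2417 in MDSC, 2616, 2708, 2567 and 2563 with blank particles and 3699, 4066, 3733 and 3963 in CITED. It was 1.6-fold higher in CITED than in MDSC (log2 0.67 ± 0.0517, adjusted p = 3.0e-13, edgeR) and 1.48-fold higher than in MDSC-NP-Blk (adjusted p = 1.4e-10), and the CITED libraries lay above all others. With blank particles its value was 0.11 ± 0.0518 (adjusted p = 0.0936), which turned to -0.15 with scaling by library size alone and passed as higher with the length trend removed (0.30, adjusted p = 5.0e-06). Scaling by library size alone moved the median of all genes above a mean of 50 by -0.27 in CITED against MDSC and by -0.26 in MDSC-NP-Blk against MDSC.

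Kif1b (chr4:149260618-149410343), which carries mitochondria and synaptic vesicle precursors, had 2873, 2427, 2756 and 2758 in MDSC, 2638, 2785, 2778 and 2926 with blank particles and 2748, 2714, 2573 and 2603 in CITED. Its groups overlapped, with a log2 difference of -0.02 in CITED against MDSC (95% interval from -0.14 to 0.09), which turned to 0.39 with the length trend removed. Its canonical transcript is the longest of the transport members, with 10963 bases. Kif1a, its neuronal relative, was called lower in CITED at a low level (-1.58 ± 0.358, adjusted p = 3.8e-04, edgeR), from 47.8 to 62.5 normalized counts in MDSC to between 8.68 and 27.7.

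Kif13a, Kif13b and Kif16b, kinesin-3 motors of endosomes and recycling vesicles, were a little lower in CITED. Kif13a (chr13:46902563-47083687) had 1196, 1244, 1241 and 1311 in MDSC, 916, 999, 1057 and 923 with blank particles and 1041, 979, 1055 and 960 in CITED. Kif13b (chr14:64884714-65047073) had 1150, 1065, 1158 and 1197 in MDSC, 939, 1087, 977 and 1063 with blank particles and 826, 871, 904 and 873 in CITED. The 2 genes differed in that both particle groups were low for Kif13a, whereas CITED alone lay below all the other libraries for Kif13b. Kif16b (chr2:142459394-142743546) had 558, 603, 582 and 602 in MDSC, 443, 478, 515 and 461 with blank particles and 460, 498, 461 and 400 in CITED. Their log2 fold changes in CITED against MDSC were -0.31, -0.40 and -0.37, with adjusted p of 3.1e-04, 1.3e-05 and 4.9e-04 by edgeR. With the length trend removed Kif13a was at -0.04 (adjusted p = 0.663), and Kif13b and Kif16b still passed at -0.21 and -0.24.

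As a class, the transport members tested gave medians of -0.35 in MDSC-NP-Blk against MDSC and 0.05 in CITED against MDSC-NP-Blk, where the medians over all genes were -0.03 and 0.00. With blank particles 7 of 13 were lower at an adjusted p below 0.05 (18.6% of all genes) and 0 were higher (19.9%) by edgeR, with 1 higher at an unadjusted p below 0.05 and 0 higher after adjustment by DESeq2. With the length trend removed, 5 were lower and 2 higher with blank particles, and their median was -0.18. In the rapamycin step 2 were lower (Kif17 and Kif13b, against 11.4% of all genes) and 3 were higher (Kif1c, Kif3a and Kif3b, against 10.5%). The difference between the steps passed for 4 of 13, each with the rapamycin step the higher, as in 9.22% of all genes, namely Kif1c (0.45), Kif13a (0.40), Kif3b (0.39) and Kif5b (0.30). For Kif13a it no longer passed without MDSC-NP-Blk replicate 4 (0.36), and for Kif5b not with the length trend removed (0.23) or without MDSC replicate 3, MDSC-NP-Blk replicate 1 or 4, or CITED replicate 2 (0.21 to 0.28). Kif1b passed in the opposite direction with the length trend removed (-0.31) and with the length and GC trends removed (-0.32). Kif3c passed as higher with library size alone (0.80) and without CITED replicate 2 (0.65), and Kif16b with library size alone (0.49).

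**Figure D3:**
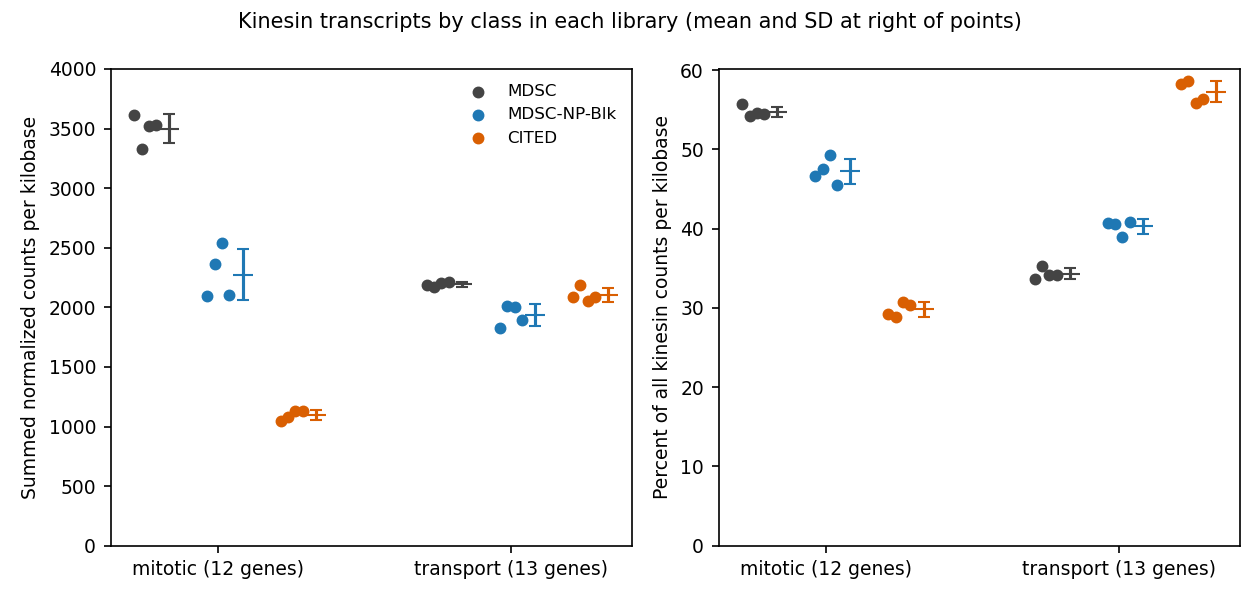
Summed normalized counts per kilobase of canonical transcript for the 12 mitotic and 13 transport kinesins (left) and their percent of all kinesin counts per kilobase (right), with a point per library and the mean and SD of 4 libraries beside them. The mitotic sum fell in each step, the transport sum lay between 1829 and 2215 in all libraries, and the transport share passed the mitotic share in CITED. The length trend was not removed.

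Per kilobase of transcript, mitotic kinesins made up more of the kinesin RNA than transport kinesins in MDSC and MDSC-NP-Blk, and less in CITED. The trend with transcript length, which differed between the groups, was not removed from these sums, shares and ranks. Their summed level was 3500 ± 123 normalized counts per kilobase in MDSC, 2275 ± 214 with blank particles and 1095 ± 42.4 in CITED (mean ± SD, n = 4 libraries), while the transport sum was 2194 ± 21.7, 1936 ± 89.3 and 2105 ± 59.9. The mitotic share of all kinesin counts per kilobase was 54.2% to 55.7% in MDSC, 45.5% to 49.3% with blank particles and 28.8% to 30.8% in CITED, with no overlap between groups. The transport share was 34.4% ± 0.703, 40.3% ± 0.917 and 57.3% ± 1.34. The order of levels per kilobase changed with it. In MDSC it was led by Kif5b (704 ± 16.8), Kif11 (674 ± 10.2) and Kif22 (611 ± 44.3), and in CITED by Kif1c (545 ± 25.1), Kif5b (528 ± 25.9) and Kif3b (315 ± 13.5), where the first 2 lie within their spread and Kif11 ranked 10 with 143 ± 7.32.

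Among the ciliary and centriolar kinesins, Kif24 fell furthest of all members with a mean above 50. Kif24, which removes tubulin at the mother centriole and holds back cilium formation in cycling cells, had 377, 367, 412 and 426 normalized counts in MDSC, 108, 131, 143 and 125 with blank particles and 66.3, 68.3, 62 and 70.4 in CITED. Its log2 fold change was -2.56 ± 0.132 in CITED against MDSC (adjusted p = 9.0e-18, edgeR) and -1.63 ± 0.121 with blank particles, so 63.8% of its fall lay in the blank step, and the contrast of the steps had the sign opposite to that of the mitotic members (0.71 ± 0.228, adjusted p = 0.0214). That contrast no longer passed without MDSC-NP-Blk replicate 1 (0.58), or without replicates 1 and 4 (0.50), a choice made after seeing the data. Kif7, a regulator of Hedgehog signalling at the cilium tip, was called lower in CITED (-1.43 ± 0.538) and with blank particles (-1.89 ± 0.549) at a level of 14.7 to 44.6 in MDSC and 2.33 to 12.5 elsewhere. The Kif7 call in CITED was lost with the replicate block (-1.34, adjusted p = 0.0692) and without MDSC replicate 2 (-1.04), CITED replicate 2 (-1.33) or CITED replicate 3 (-1.34). Its call with blank particles was lost without MDSC replicate 2. Kif9, with 48.4 to 92.4 in all libraries, did not pass in any comparison, and Kif19a (2.44 to 29.1) did not either.

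Of the other members, Kif21b and Kif2a were well expressed. Kif21b, which limits microtubule growth and acts at the immune synapse of T cells, had 4228, 3868, 4421 and 4455 in MDSC, 3378, 3622, 3667 and 3925 with blank particles and 2640, 2888, 2992 and 2934 in CITED, a log2 fold change of -0.57 ± 0.0567 in CITED against MDSC (adjusted p = 1.9e-10, edgeR), and of -0.21 and -0.33 with the length trend and with the length and GC trends removed. Kif2a, a microtubule depolymerase of the same family as Kif2c, had 1010, 933, 1032 and 992 in MDSC, 1106, 1009, 1046 and 1071 with blank particles and 861, 873, 864 and 915 in CITED. It was slightly lower in CITED (-0.18 ± 0.068, adjusted p = 0.0343), a value that turned to 0.08 with the length trend removed. The contrast of the steps passed for Kif2a (-0.36 ± 0.116, adjusted p = 0.0224) and no longer did with library size alone (-0.11) or without MDSC-NP-Blk replicate 1 (-0.31) or replicate 4 (-0.34). Kif21a was called lower in both particle groups at 0 to 9.36 normalized counts against 8.63 to 24.8 in MDSC, with overlap. Its call in CITED was lost with the length trend removed (-1.67, adjusted p = 0.0695), and without MDSC replicate 2, 3 or 4 or CITED replicate 1, 2 or 4 (-1.98 to -1.51). With blank particles the Kif21a call was lost without MDSC replicate 2 or 3 or MDSC-NP-Blk replicate 1 or 4 (-2.04 to -1.89). Kif6, Kif19b and Kif26b had at most 3.14 in any library, too few for a fold change.

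**Figure D4:**
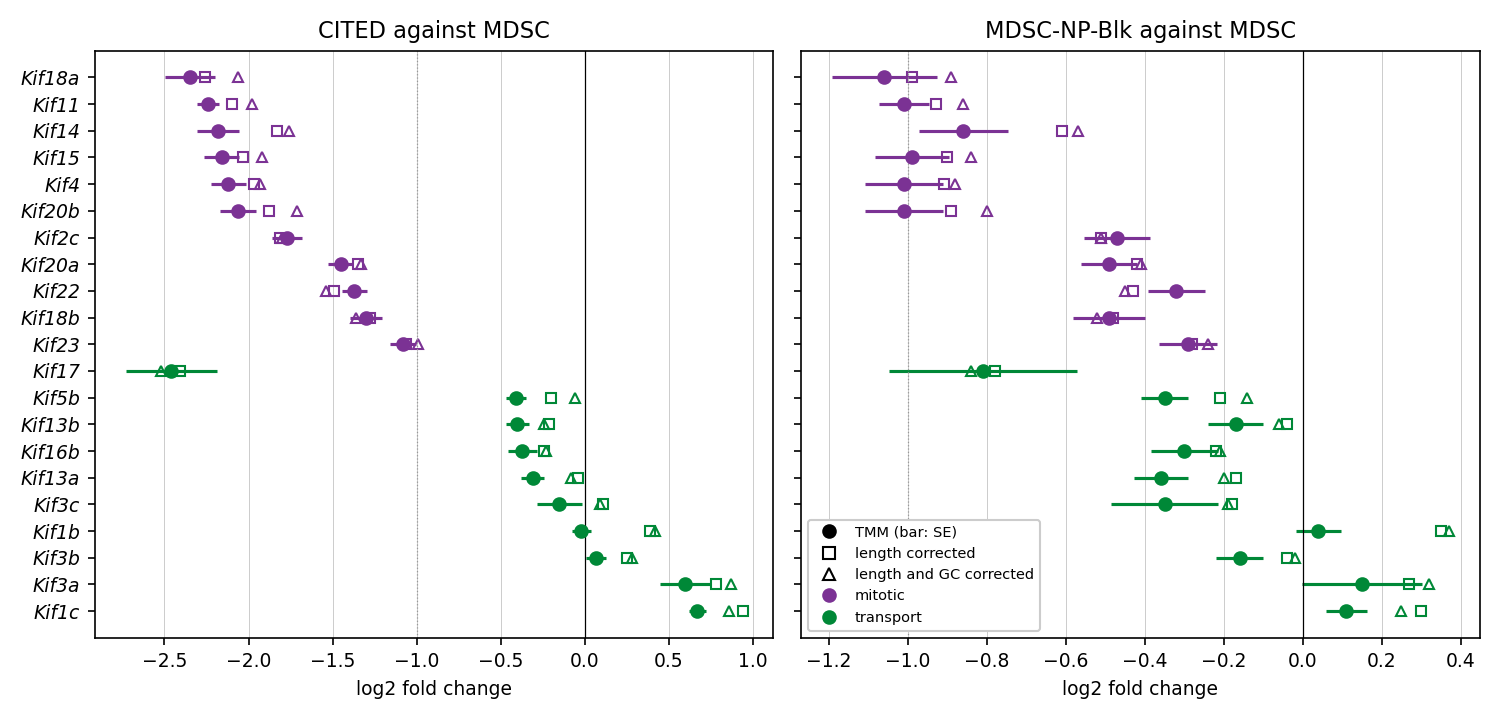
Log2 fold changes of the mitotic and transport kinesins with a mean above 50 in CITED against MDSC (left) and MDSC-NP-Blk against MDSC (right), as fitted with TMM scaling (filled circles with SE bars), with the length trend removed (squares), and with the length and GC trends removed (triangles). The dotted line marks -1. The mitotic members stay below 0 with every scaling shown and Kif1b moves from near 0 to above it, and in the right panel the 4 mitotic members at or beyond -1 move inside it.

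Genes whose products work with kinesins were read from lists chosen for their function, with earlier results of these data known. Of 20 partners of mitotic kinesins, 18 were called lower in CITED against MDSC by edgeR (6.70% of all genes), and 20 passed as lower at an adjusted p below 0.05 (22.2%). At these thresholds 0 were higher (3.28% and 22.2% of all genes). In MDSC-NP-Blk against MDSC, 3 were called lower (2.86%), 17 passed as lower (18.6%) and 0 were higher (1.88% and 19.9%). In CITED against MDSC the lowest p-values belonged to Tpx2, the spindle assembly factor that targets Kif11 and Kif15 (log2 -1.67 ± 0.064), Anln, the cytokinetic ring protein anillin (-2.42 ± 0.0928), and Ccnb1, cyclin B1 (-1.92 ± 0.0746). Of the 31-base words of Ccnb1, 46.2% are also in other genes, so its count is uncertain. Incenp and Numa1 were lower without being called, at -1.0 and -0.26. Among 5 motors whose symbols fall outside the selection, the kinetochore kinesin Cenpe was called lower (-1.82 ± 0.0812), as was Kifc5b (-1.12 ± 0.131), and Kifc1 was lower (-0.92 ± 0.0801), but the last 2 share 52.4% and 63.3% of their words. Kifc2 and Kifc3 did not pass, at 0.75 ± 0.573 and 0.41 ± 0.238.

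The light chains, adaptors and dynein genes moved in both directions. Of 16 kinesin light chains and cargo adaptors, 0 were called in CITED against MDSC by edgeR or DESeq2, and 2 were lower and 5 higher at an adjusted p below 0.05 (3 and 5 at an unadjusted p below 0.05), where 22.2% of all genes were lower and 22.2% higher. The lowest p-values belonged to Arl8a, a lysosomal GTPase that recruits kinesins (0.85 ± 0.055), Trak2, a mitochondrial adaptor (-0.62 ± 0.0781), and Klc1, a kinesin-1 light chain (0.49 ± 0.0626), and the light chains Klc2 and Klc4 were higher as well, at 0.63 and 0.56. Of 19 tested genes of dynein and dynactin, the motor that moves the opposite way along microtubules, and its adaptors, 0 were called by either tool. At an adjusted p below 0.05 by edgeR, 2 were lower and 11 higher, where 22.2% of all genes were lower and 22.2% higher. At an unadjusted p below 0.05 these counts were 3 and 11. The lowest p-values belonged to Dctn2 (0.79 ± 0.0543), Ndel1 (0.73 ± 0.0534) and Dynlrb1 (0.45 ± 0.0685), and the lower genes were Hook3 (-0.45 ± 0.0715) and Nde1 (-0.25 ± 0.0836).

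Of 17 tubulins and microtubule-binding genes, 1 was called lower in CITED against MDSC by edgeR, where 6.70% of all genes were, and 10 were lower and 2 higher at an adjusted p below 0.05, where 22.2% were lower and 22.2% higher. The called gene was Tubg1, gamma-tubulin, which nucleates microtubules (-1.13 ± 0.0966, with 23.9% of its words shared). The lowest p-values belonged to Tuba4a (-0.78 ± 0.0466), Tubb4b (-0.69 ± 0.0539, with 64.5% shared) and the tubulin-binding Stmn1 (-0.77 ± 0.0616, with 25% shared). Of 18 genes of the MuvB, FoxM1 and E2F group, which control the transcription of cell cycle genes, 7 were called lower, and 13 were lower and 2 higher at an adjusted p below 0.05, to be read against the same shares. Mybl2 (-2.09 ± 0.084, 24.1% shared), Foxm1 (-2.07 ± 0.0965) and E2f8 (-2.28 ± 0.109) had the lowest p-values. Lin37 and E2f4 were the 2 that were higher, at 0.45 (16.7% shared) and 0.24.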

How the data were processed

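Poly(A)-selected RNA from 12 libraries was analysed. The deposited table holds raw counts as whole numbers for each gene symbol, which the authors quantified with Salmon 1.4.0 against a GENCODE transcriptome on GRCm39, with the genome as decoy, and summed per gene with tximport in R 4.3.2, per the study's methods and the submitters' processing notes. The GENCODE release is not given in the sources used here. Groups and replicate numbers came from the library titles. An entry without a symbol held 0 counts and was left out. In such counts the reads of near-identical genes can be split between them, so the percent of 31-base words shared with other genes is given where it matters.

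Genes whose counts summed to 2 or more were tested with edgeR 4.0.16 in R 4.3.3 (TMM factors, glmQLFit and glmQLFTest, group as the only term, all 12 libraries), with Benjamini-Hochberg adjustment over all genes tested. The TMM factors of MDSC lay between 1.12 and 1.15, those with blank particles between 0.938 and 0.947, and those of CITED between 0.921 and 0.944. No libraries of a group agreed within sampling noise. Alternatives were DESeq2 1.42.0, other factors, filters and thresholds, 8 libraries at a time, a replicate block, offsets from loess curves (span 0.5) on transcript length and GC content, and leaving out libraries. The log2 deviations of genes from their group mean were correlated between libraries of different groups. For same-numbered libraries the mean correlation was 0.0126 (CITED and MDSC), 0.0524 (CITED and MDSC-NP-Blk) and -0.0107 (MDSC and MDSC-NP-Blk). For libraries of different numbers it was -0.00427, -0.017 and 0.00393, and the numbers were not taken to pair libraries. Positions are of the whole gene and lengths of the canonical transcript in the mouse GENCODE release M39, and promoters are from RefSeq. The code was tested on simulated data. The libraries differ in depth, and the limits for counts of 0 cover counting error only.

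The members and gene lists were chosen with earlier results of these data known. Mitotic and transport members with a mean normalized count above 50 are given in every library, other members by range unless called or opposite to their class, and from other lists the 3 genes with the lowest p-value and those opposite to most of the list. Kif24, Kif21b and Kif2a were given in every library, and further list genes named, after their values were seen. Classes were described without a test.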

Additional observations from a re-analysis of the deposited data

Results flagged for a closer look

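Of the 87 groups of 4 libraries examined for the kinesins with counts, 5 had a library that stood apart by the gap to its nearest neighbour relative to the range of the group, and chance flags about 1 in 20 groups. Kif14 was low in MDSC replicate 2, with a normalized count of 697. Kif22 was high in CITED replicate 4, with 535, and Kif4 was high in CITED replicate 3, with 267. Kif3b was high in CITED replicate 2, with 1890, and Kif3c was high in MDSC replicate 1, with 230. In the first 3 the libraries of the groups still did not overlap.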

How the results depend on the processing

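Under the alternatives run, all 11 mitotic kinesins passed as lower at an adjusted p below 0.05 in each comparison except under the test against the fold threshold (glmTreat of edgeR), and in CITED against MDSC all 11 were called except 10 of 11 with length and GC correction and 10 with that test. The replicate block changed no class result listed here by more than 1.5 times, and it moved the calls over all genes in CITED against MDSC from 1765 to 1621. With Kif2a and Kif24 counted as mitotic, 12 of 13 were called there. For 2 of 12 libraries, the deviations from the group mean correlated best with the library of the same number in both other groups.

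Scaling by library size alone gave mitotic medians of -2.34 (CITED against MDSC) and -1.12 (MDSC-NP-Blk against MDSC), transport medians of -0.58 and -0.61, 1 transport kinesin higher in CITED against MDSC, 11 lower in MDSC-NP-Blk against MDSC, and 2 mitotic members past the test of the step difference. It also reversed MDSC-NP-Blk against MDSC for Kif1b (-0.22), Kif1c (-0.15) and Kif2a (-0.17), and CITED against MDSC for Kif3b (-0.21). Upper quartile factors left 2 mitotic members called in MDSC-NP-Blk against MDSC.

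Length correction, and length and GC correction after it, gave mitotic medians of -1.83 and -1.76 in CITED against MDSC and -0.61 and -0.57 in MDSC-NP-Blk against MDSC, with 0 and 0 called there by edgeR and 11 and 11 at an unadjusted p below 0.05. Transport medians were -0.04 and -0.06, then -0.18 and -0.19, and 0.13 and 0.12 in CITED against MDSC-NP-Blk. Transport kinesins higher were 4 and 4 in CITED against MDSC and 2 and 2 in MDSC-NP-Blk against MDSC, and 1 was lower in CITED against MDSC-NP-Blk with length correction. Kif1b turned to 0.39 and 0.42 and Kif2a to 0.08 and 0.23 in CITED against MDSC, and Kif21b to 0.04 in MDSC-NP-Blk against MDSC with length correction.

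The test against the fold threshold called 0 mitotic members in MDSC-NP-Blk against MDSC and 0 in CITED against MDSC-NP-Blk (0 and 5 at an unadjusted p below 0.05), where DESeq2 with the usual thresholds called 5 and 8. The filterByExpr filter gave 1 transport kinesin higher in MDSC-NP-Blk against MDSC and a transport median of 0.00 in CITED against MDSC-NP-Blk. Transport members with a mean above 50 had medians of -0.23, -0.24 and -0.01 in the 3 comparisons.

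Leaving out each library in turn, mitotic calls ranged from 1 to 5 in MDSC-NP-Blk against MDSC, with 1 without MDSC-NP-Blk replicate 1 or replicate 4, and the medians from -1.0 to -0.78 there and from -1.17 to -1.02 in CITED against MDSC-NP-Blk. Transport medians ranged from -0.40 to -0.29 in MDSC-NP-Blk against MDSC and from -0.09 (without MDSC-NP-Blk replicate 1) to 0.09 in CITED against MDSC-NP-Blk, where 1 to 3 were lower (1 without MDSC-NP-Blk replicate 2 or 4 or CITED replicate 1), and 2 to 4 passed as higher in the test of the step difference (2 without MDSC-NP-Blk replicate 4).

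Without MDSC-NP-Blk replicates 1 and 4, an alternative chosen after seeing the data, as was the next, 0 mitotic members were called in MDSC-NP-Blk against MDSC by edgeR (11 at an unadjusted p below 0.05). The mitotic medians were -0.64 there and -1.25 in CITED against MDSC-NP-Blk, the transport medians -0.23 and -0.03, 4 transport kinesins were lower in MDSC-NP-Blk against MDSC, and 8 mitotic and 1 transport member passed the test of the step difference. Without replicates 2 and 3 the mitotic medians were -1.15 and -0.96, the transport medians -0.46 and 0.13, and in CITED against MDSC-NP-Blk 4 mitotic members were called and 1 transport kinesin was lower. The cause of these differences was not tested. Over single kinesins and alternatives, 2705 values kept direction and side of the threshold, 90 lost and 34 gained the call, and 9 changed sign.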
